A study of Mus musculus with 8 samples.

Results

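Messenger RNA of 10 circadian clock and clock output genes was followed in the livers of 8 mice. The genes are Arntl, Clock, Npas2, Per1, Per2, Per3, Cry1, Nr1d1, Dbp and Wee1, taken as every probe annotated with one of these symbols after old names were updated. All 10 were measured, by 14 of the 39556 probes on the array, among 19896 named genes. Of them, 6 were read by 1 probe and 4 (Per3, Cry1, Nr1d1 and Dbp) by 2 probes, which were averaged. The mice were 3 labelled as knockouts, and called so below, of Me1 (also called Mod1), the gene of the cytosolic malic enzyme, and 5 wild-type littermates, and each is named here by the number in its label: 27, 31 and 33 for the knockouts, 14, 15, 21, 22 and 26 for the wild types. The allele, the strain, the sex and the age of the mice, their feeding and the hour at which the livers were taken are not stated in the labels used here. Each liver RNA was hybridised on 2-colour arrays together with a common reference pooled from 5 wild-type livers. The values below are log2 ratios of a mouse to that pool. Such ratios carry no absolute level, and no gene's level is set against another's.

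The clock is a feedback loop of transcription. The proteins of Arntl (BMAL1) and of Clock, or of its relative Npas2, pair and bind E-box sequences, where they switch on the Per and Cry genes, whose proteins return to the nucleus and repress that pair. In a linked loop the same pair drives Nr1d1, whose protein REV-ERB alpha represses Arntl. Arntl and many, but not all, of the E-box genes thus peak at opposite times of day in mouse liver. Dbp, a transcription factor that binds D-box sequences, and Wee1, a kinase that delays entry into mitosis, are E-box-driven outputs that cycle in the liver.

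These binding sequences are shown for the members whose promoter window in RefSeq (GRCm38.p6) holds one. A window runs from 250 bases before to 50 bases after an annotated start site. The table held 12 windows for 8 of the 10 members, those other than Per2 and Wee1. The E-box CACGTG occurred in 2 of the 12 windows, one each of Per1 and Cry1, and in 7.15% of all 32851 windows of this length. The first window of Per1, on the plus strand of chr11:69098756-69098815, and that of Cry1, on the minus strand of chr10:85185082-85185141, are given in part, with the E-box in capitals.
Per1: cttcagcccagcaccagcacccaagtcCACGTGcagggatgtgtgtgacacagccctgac
Cry1: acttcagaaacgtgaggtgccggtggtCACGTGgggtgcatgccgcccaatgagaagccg

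The D-box was searched as TTATGTAA and TTACGTAA on both strands. Per3 was the only member with a match in its window, and had 2 copies of TTATGTAA, whose first bases lie 205 and 158 bases before the start site. A D-box occurred in 1.06% of all windows. The whole window of Per3, on the minus strand of chr4:151044616-151044915, is shown with both copies in capitals because Dbp and Per3 are compared below.
Per3: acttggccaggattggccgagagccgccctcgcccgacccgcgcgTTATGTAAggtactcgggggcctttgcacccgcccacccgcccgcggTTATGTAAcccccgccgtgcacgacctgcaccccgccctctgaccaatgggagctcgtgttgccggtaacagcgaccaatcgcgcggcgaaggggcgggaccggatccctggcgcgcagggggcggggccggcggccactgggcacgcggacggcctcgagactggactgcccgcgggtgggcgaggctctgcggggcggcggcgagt

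The core of the element bound by REV-ERB and ROR receptors, AGGTCA, was found on either strand in 3 of the 12 windows (Arntl, Clock and Per1) and in 16.3% of all windows. In Arntl it lies just after the start site of the second annotated window, on the plus strand of chr7:113207515-113207560, with the core in capitals.
Arntl: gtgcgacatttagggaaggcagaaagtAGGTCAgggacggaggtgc
These matches describe letters in the windows, and binding was not measured.

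The base and the direction of the deposited ratios were inferred and are not stated with the values. Read as log10 of mouse over pool, the mean wild-type ratio had a median of 0.999 over the 300 most variable probes, against 1.33 with the opposite direction. Read as log2 of mouse over pool it was 0.968, so the base is less clearly separated than the direction. The size of every difference below rests on the log10 reading. That check does not reach the knockout arrays. Of all pairs of arrays, 3 correlated below -0.3 over all probes, 1 of them between the genotypes (wild-type mouse 14 with knockout 33, r = -0.394). Wild-type mouse 22 did so with wild types 14 and 26 (r = -0.322 and -0.459). Such correlations thus cannot decide the direction of the knockout arrays, which remains unsettled. Differences and counts between genotypes are therefore also given after turning the sign of every knockout value ("with the sign turned"). The SD of the log2 ratios over all probes ran from 0.127 to 0.291 across arrays, widest in wild-type mouse 22 and, among the knockouts, in mouse 33. The 1 probe of Me1 itself, listed as Mod1, gave 0.82, -0.81 and -0.68 in knockouts 27, 31 and 33, against -1.73 to 0.82 in the wild types (difference 0.09 ± 0.64, exact permutation p = 0.875, or 0.54 with the sign turned). Whether it lies inside the altered stretch is not stated, so it does not check the labels. Precision is limited by the number of arrays, and signal intensities were not analysed here. Differences are knockout minus wild type (n = 3 and n = 5) and carry the standard error from limma.

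The farthest value of any member in any mouse was 0.78 on the log2 scale. No member passed an adjusted p of 0.05 in limma with Benjamini-Hochberg adjustment over all 36169 features, of which 10 (0.0276%) did. At an unadjusted p of 0.05, 2 of the 10 members passed (Arntl and Wee1), where 9.28% of all features did, and by an exact two-sided permutation test over all 56 splits 0 did. Arntl and Wee1 had the lowest exact p, 0.0536 each, where the smallest that the design allows is 0.0179.

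**Figure D1:**
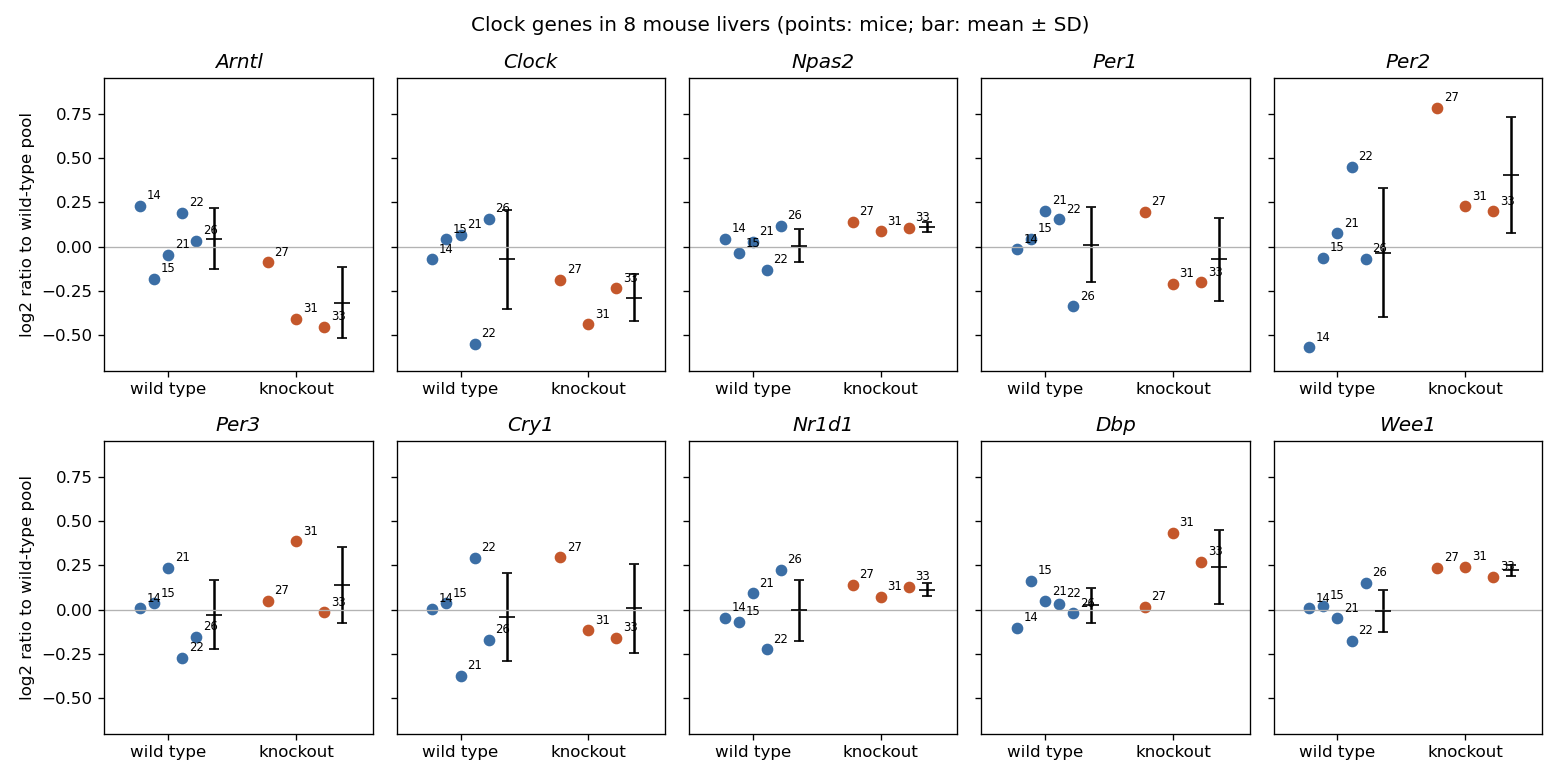
Log2 ratio to the wild-type pool (y axis, the same in every panel) for the 10 clock genes in each mouse, numbered, with the mean and SD of 5 wild types (blue) and 3 knockouts (orange) beside the points. Only in the Wee1 panel do the groups not overlap, and Per2 shows the widest range.

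Among the activators, Arntl had a log2 ratio of 0.23, -0.18, -0.05, 0.19 and 0.03 in wild types 14, 15, 21, 22 and 26, and of -0.09, -0.41 and -0.45 in knockouts 27, 31 and 33. Knockouts 31 and 33 lay below every wild type, while knockout 27 lay among them. The mean was 0.05 ± 0.17 (SD, n = 5) in the wild type and -0.32 ± 0.20 (SD, n = 3) in the knockout. The difference of -0.36 ± 0.12 (95% interval -0.63 to -0.09, 1.29-fold) had an adjusted p of 0.455 by limma, and became 0.27 with the sign turned.

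Clock, the usual partner of Arntl, stood at -0.07, 0.04, 0.07, -0.55 and 0.16 in the same order of wild types and at -0.19, -0.44 and -0.24 in the knockouts. The lowest of all 8 mice was thus wild-type mouse 22, and the other wild types lay above every knockout. The difference was -0.22 ± 0.15 (adjusted p = 0.688 by limma), or 0.36 with the sign turned. Leaving out mouse 22, the only wild type below any knockout, removes the overlap by construction. The difference was then -0.34 (adjusted p = 0.134 by limma), while without knockout 31 it was -0.14. The share of all features that do not overlap without mouse 22 was not counted.

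Npas2, which can replace Clock in the pair, spread little. Its log2 ratio was 0.04, -0.04, 0.03, -0.13 and 0.12 in the wild types and 0.14, 0.09 and 0.11 in the knockouts. Only wild type 26 reached the knockout values, and the other wild types were lower. The difference of 0.11 ± 0.06 did not pass (adjusted p = 0.612 by limma) and was -0.11 with the sign turned.

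Among the repressors, Per2 varied most. Its log2 ratio was -0.57, -0.06, 0.07, 0.45 and -0.07 in wild types 14, 15, 21, 22 and 26, and 0.78, 0.23 and 0.20 in knockouts 27, 31 and 33. All knockouts lay above 4 of the wild types, and wild-type mouse 22 was exceeded by knockout 27 alone. Its range over the 8 mice, 1.35, was wider than that of 97.1% of all features. The difference of 0.44 ± 0.22 (95% interval -0.08 to 0.95) had an adjusted p of 0.580 by limma, and was -0.37 with the sign turned. Leaving out wild-type mouse 22, the only wild type above any knockout, removes the overlap by construction (the share of all features was not counted there). Without knockout 27 the difference was 0.25.

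Per1, which also answers acutely to glucocorticoids, did not follow Per2. It stood at -0.02, 0.04, 0.20, 0.15 and -0.34 in the wild types and at 0.20, -0.21 and -0.20 in the knockouts. Knockout 27 was near the highest wild type and the other two knockouts lay below every wild type but mouse 26. The difference was -0.08 ± 0.14 (adjusted p = 0.857 by limma), or 0.063 with the sign turned, and it was 0.019 without the arrays of widest spread, those of mice 22 and 33. It was -0.22 without knockout 27, -0.17 without wild type 26, -0.046 without wild type 22, -0.034 without wild type 21, -0.017 without knockout 33 and -0.013 without knockout 31.

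Per3, the third Period gene, was 0.01, 0.04, 0.24, -0.27 and -0.15 in the wild types and 0.05, 0.38 and -0.01 in the knockouts. Knockout 31 was the highest of all 8 mice, and the other two lay within the wild-type range. The difference of 0.17 ± 0.13 (adjusted p = 0.710 by limma) was 0.045 without knockout 31, 0.11 without wild type 22 and -0.11 with the sign turned.

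Cry1, which joins the Period proteins in repression, stood at 0.00, 0.04, -0.38, 0.29 and -0.17 in the wild types and at 0.29, -0.12 and -0.16 in the knockouts. The knockouts were as widely spread as the wild types, with an SD of 0.25 in both groups. The difference of 0.05 ± 0.16 (adjusted p = 0.927 by limma) was 0.04 with the sign turned, and without single mice it was -0.034 (wild type 21), 0.13 (wild type 22), 0.017 (wild type 26), -0.095 (knockout 27), 0.11 (knockout 31) and 0.13 (knockout 33).

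Nr1d1 was -0.05, -0.07, 0.09, -0.22 and 0.22 in the wild types and 0.14, 0.07 and 0.13 in the knockouts. The knockouts lay close together, with an SD of 0.04 against 0.17 in the wild type, and wild-type mice 21 and 26 lay within or above them. The difference was 0.12 ± 0.09 (adjusted p = 0.720 by limma), or -0.11 with the sign turned, and 0.062 without wild type 22.

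Among the outputs, Dbp stood at -0.10, 0.16, 0.05, 0.03 and -0.02 in wild types 14, 15, 21, 22 and 26, and at 0.02, 0.43 and 0.27 in knockouts 27, 31 and 33. Knockouts 31 and 33 exceeded every wild type, while knockout 27 lay in the middle of them. The mean was 0.02 ± 0.10 (SD, n = 5) in the wild type and 0.24 ± 0.21 (SD, n = 3) in the knockout. The difference of 0.22 ± 0.10 (95% interval -0.01 to 0.44) had an adjusted p of 0.545 by limma, and was -0.26 with the sign turned. Without knockout 27 it was 0.33, and without knockout 31 it was 0.12.

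Wee1 was the 1 member of 10 whose genotypes did not overlap, where 7.21% of all features did not. Its log2 ratio was 0.01, 0.02, -0.05, -0.18 and 0.15 in the wild types and 0.23, 0.24 and 0.19 in the knockouts. The gap between knockout 33 and wild-type mouse 26 was small beside the spread of the wild types. The difference of 0.23 ± 0.07 (95% interval 0.07 to 0.39, 1.17-fold) had an adjusted p of 0.430 by limma, and was -0.21 with the sign turned. With 1 mouse left out in turn it ran from 0.19 to 0.27. The groups overlapped once the arrays were scaled to the same spread or quantile normalized.

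**Figure D2:**
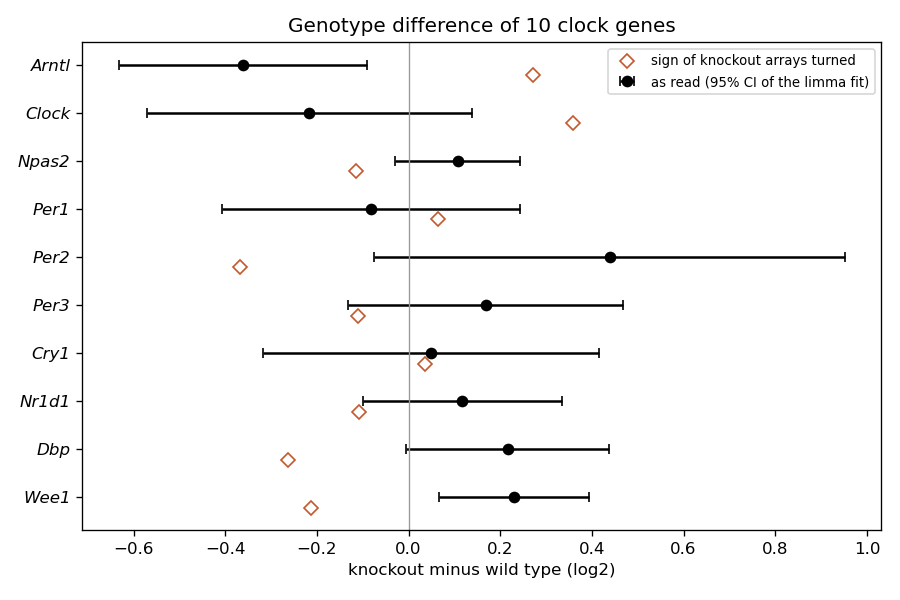
Knockout minus wild type in log2 units (x axis) for each gene, with 95% intervals of the limma fit (black) and the same difference with the knockout sign turned (open diamonds). Of the 10 genes, 7 are above and 3 below 0 as read, and 9 change sign when turned, all but Cry1.

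As read, 7 members were higher and 3 lower in the knockout, with a median difference of 0.11, beside 0.01 over all features. With the sign turned 4 were higher and 6 lower, with medians of -0.11 and -0.03. The median absolute difference was 0.19 over the members and 0.07 over all features. In the gene lists described below it was 0.12 (other clock genes), 0.37 (liver genes that cycle) and 0.09 (temperature-responsive). It was 0.21 in the glucocorticoid-responsive and 0.46 in the feeding and fasting genes, so a value above that of all features is not particular to the members. The wild types alone also spread more in these genes than in most features: the wild-type SD was above that of the median feature in 8 of 10 members, and exceeded that of 94.6% of features in Per2 and of 89.8% in Clock. In 5 members (Clock, Npas2, Per3, Nr1d1 and Wee1) the lowest of all 8 values was that of wild-type mouse 22, whose array had the widest spread.

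For the 4 genes with 2 probes the probes were compared across the 8 mice. Those of Cry1 matched closely (r = 0.99), with a largest gap of 0.08. Those of Dbp had r = 0.94 and differences between genotypes of 0.24 ± 0.12 and 0.19 ± 0.08 (-0.33 and -0.20 with the sign turned). For Nr1d1 the first probe spanned 0.74 and the second 0.16 (r = 0.84), and their genotype differences were 0.21 ± 0.15 and 0.02 ± 0.05 (turned -0.17 and -0.04), so the mean understates what the first probe read. The Per3 probes agreed least (r = 0.74): in knockout 27 they gave 0.21 and -0.11, and the genotype differences were 0.24 ± 0.11 and 0.10 ± 0.16 (turned -0.19 and -0.034). None of these 8 probes passed when every probe was tested singly.

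**Figure D3:**
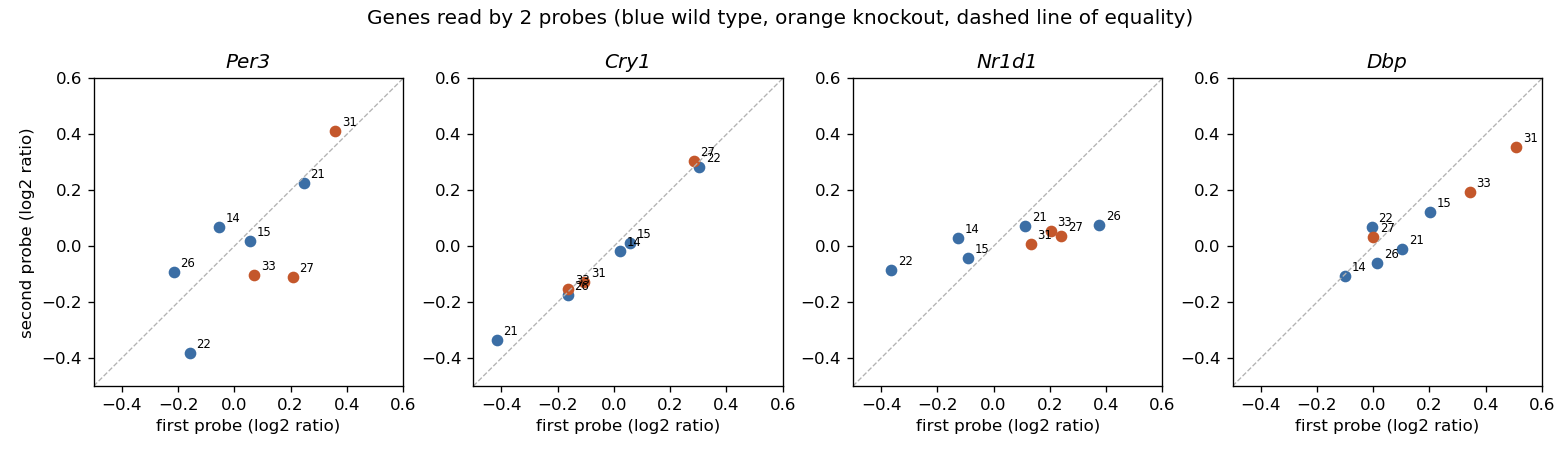
Log2 ratios of the first probe (x axis) and the second probe (y axis) of Per3, Cry1, Nr1d1 and Dbp in each numbered mouse, blue for wild type and orange for knockout. Cry1 follows the dashed line of equality, while the second Nr1d1 probe stays between -0.09 and 0.07.

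Arntl and Dbp ran in opposite directions from liver to liver. Across the 8 mice Pearson's r was -0.90 (exact permutation p = 0.00186, adjusted over the 4 pairs tested 0.00744) and Spearman's rho was -0.86 (exact permutation p = 0.0107, adjusted 0.0429). The 4 pairs were picked from 45 with earlier results of these data known, which the adjustment does not cover, so these p-values are not independent evidence. Wild-type mouse 14 had the highest Arntl and the lowest Dbp of all, and knockouts 31 and 33 had the lowest Arntl and the highest Dbp. Turning the knockout sign left r at -0.90. That turn reverses both genes together and can move r only through the genotype means, so it is little check of the pair. With any 1 mouse left out r lay between -0.93 and -0.86 (highest adjusted p 0.0421 by exact permutation). The rank correlation was less steady: its adjusted p by exact permutation was above 0.05 in 6 of the 8 fits that leave out 1 mouse, up to 0.192, and 0.0871 with the array medians set to 0. As deviations from each genotype's mean r was -0.82, with p = 0.025 by exact permutation within genotypes and 0.100 adjusted over the 4 pairs. Without knockouts 31 and 33, the mice farthest from the Arntl median, r was -0.78 over the 6 mice left. The exact permutation p was 0.0569, or 0.228 adjusted over the 4 pairs, so the pair no longer passed. With only knockout 31 or only knockout 33 left out Pearson's r still passed (adjusted p = 0.0230 and 0.0151 by exact permutation). Spearman's rho did not (adjusted p = 0.137 by exact permutation in each). No correlation is given for the 5 wild types alone. All livers were read against the same pool.

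The other tested pairs did not pass. Arntl and Npas2 had r = -0.44 (rho = -0.29, exact permutation p = 0.274 and 0.501) and Arntl and Nr1d1 r = -0.43 (rho = -0.24, exact permutation p = 0.282 and 0.582). Dbp and Per3, whose promoter carries the D-boxes shown above, had r = 0.58 (rho = 0.43, exact permutation p = 0.132 and 0.299). The adjusted p for Pearson's r of these pairs was 0.282, 0.282 and 0.264. Without the 2 mice farthest from the median of the first gene, knockouts 31 and 33 in each pair, r was -0.26, -0.40 and 0.18. Among all 45 pairs of members, 5 had r of at least 0.5 and 7 of at most -0.5. Chosen after all were seen, and so given with no p, Npas2 ran closest with Nr1d1 (r = 0.92, rho = 0.90) and with Wee1 (r = 0.90, rho = 0.76). The first of these was 0.67 without wild-type mice 15 and 22, and the second 0.87.

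**Figure D4:**
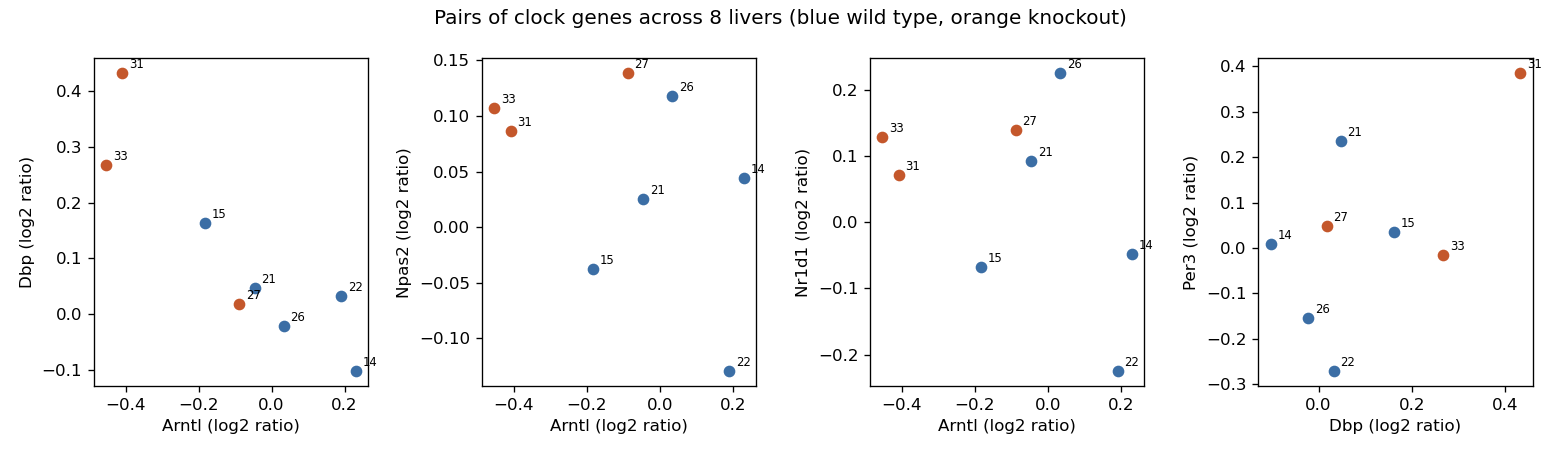
Log2 ratios of 4 pairs of clock genes in each numbered mouse, blue for wild type and orange for knockout, with axes scaled to each gene. Dbp is lower in mice with higher Arntl (r = -0.90), and the other pairs scatter more.

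The genes most like Arntl and Dbp among the 19886 named genes that are not members are given as a description over the same 8 mice. Pmaip1, a promoter of apoptosis (r = 0.97 with Arntl), Sftpc, a surfactant protein gene of the lung (0.97), Ankfy1 (0.97) and Stk40 (0.96) were nearest to Arntl, and Zfp1 and Rnf169 most opposed (-0.97 and -0.96). In all, 56 genes had r of at least 0.9 with Arntl and 44 of at most -0.9. Nearest to Dbp were Tbc1d9 (0.96), Gap43, a growth protein of neurons (0.95), 0610039K10Rik (0.95) and Zfp1 (0.94), and most opposed Cby3 and Dpy19l1 (-0.95 and -0.93). For Dbp those counts were 28 and 12. Zfp1 was thus among the nearest to Dbp and the most opposed to Arntl, with values from -0.13 in wild-type mouse 14 to 0.23 in knockout 31.

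Other genes of the clock were measured for 12 of 16 listed. None passed in either direction (2 at an unadjusted p of 0.05, where 9.28% of all features were), 4 were higher and 8 lower in the knockout, and the median difference was -0.05. With the sign turned 7 were higher and 5 lower, with a median of 0.05. By p, the first were Timeless at -0.18 ± 0.07, Fbxl21, a gene of the ubiquitin ligases that act on cryptochromes, at 0.27 ± 0.12, and the casein kinase Csnk1d, which phosphorylates Period proteins, at -0.06 ± 0.04 (adjusted p = 0.511, 0.537 and 0.674 by limma). With the sign turned these were 0.22, -0.32 and 0.02, and the 2 Csnk1d probes disagreed in sign. Without knockout 33 Timeless stood at -0.11 and Fbxl21 at 0.15, and without knockout 27 Csnk1d stood at -0.033.

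Of 12 liver genes known to cycle over the day, 6 were higher and 6 lower, as read and with the sign turned, and none passed (median 0.02 both ways). The phosphatidate phosphatase Lpin1 stood at 0.95 ± 0.19 and the vasopressin receptor Avpr1a at 0.56 ± 0.14 (adjusted p = 0.286 and 0.343 by limma). In these 2 of the 12 all knockouts lay above all wild types, where genotypes did not overlap in 7.21% of all features. The same 2 were under an unadjusted limma p of 0.05, where 9.28% of all features were. Lpin1 was 0.79, 0.63 and 1.46 in knockouts 27, 31 and 33 and at most 0.23 in the wild types. The glycogen synthase Gys2 stood at 0.33 ± 0.15 (adjusted p = 0.544 by limma). With the sign turned these differences were -0.97, -0.58 and -0.32. Gys2 was 0.16 without knockout 33 and 0.50 without knockout 27. With limma's array weights Avpr1a passed as read, at 0.64 (adjusted p = 0.0490 by limma). Under those weights 207 features passed, against 10 without them. The turned sign was not run with those weights.

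Genes that answer to cues which also set Per1 and Per2 were read beside them. Of 6 measured temperature-responsive genes, 3 were higher and 3 lower, as read and turned, with the cold-inducible RNA-binding protein gene Cirbp at -0.37 ± 0.15, the chaperone Hspa8 at 0.20 ± 0.15 and Rbm3 at 0.10 ± 0.08 (with the sign turned 0.40, -0.28 and -0.10). Without knockout 27 Hspa8 was 0.046 and Rbm3 0.045, Hspa8 was 0.13 without wild type 14 and 0.33 without knockout 33, and Rbm3 was 0.19 without knockout 31 and 0.067 without knockout 33. Of 8 glucocorticoid-responsive genes, 1 was higher and 7 lower (median -0.16), or 6 higher and 2 lower with the sign turned (median 0.23), with the cell cycle inhibitor Cdkn1a at -0.48 ± 0.14, the kinase Sgk1 at -0.17 ± 0.09 and the co-chaperone Fkbp5 at 0.48 ± 0.27 (turned 0.46, 0.18 and -0.25). Of 9 feeding and fasting genes, 4 were higher and 5 lower (median -0.07), or 6 higher and 3 lower with the sign turned (median 0.20), with the gluconeogenic Pck1 at -0.46 ± 0.16, the insulin receptor substrate Irs2 at 0.58 ± 0.22 and the coactivator Ppargc1a at -0.14 ± 0.10 (turned 0.38, -0.50 and 0.20). The 2 probes of Sgk1 disagreed in sign, as did those of Ppargc1a. Pck1 was -0.28 without knockout 27, Ppargc1a -0.21 without wild type 22 and Sgk1 -0.11 without wild type 14. No gene of these 3 lists passed by limma over all features, and 1, 1 and 2 were under an unadjusted p of 0.05, where 9.28% of all features were. As read, genotypes did not overlap in Cdkn1a and, named after its values were seen, Zbtb16 (-0.08 ± 0.05), where 7.21% of all features did not.

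**Figure D5:**
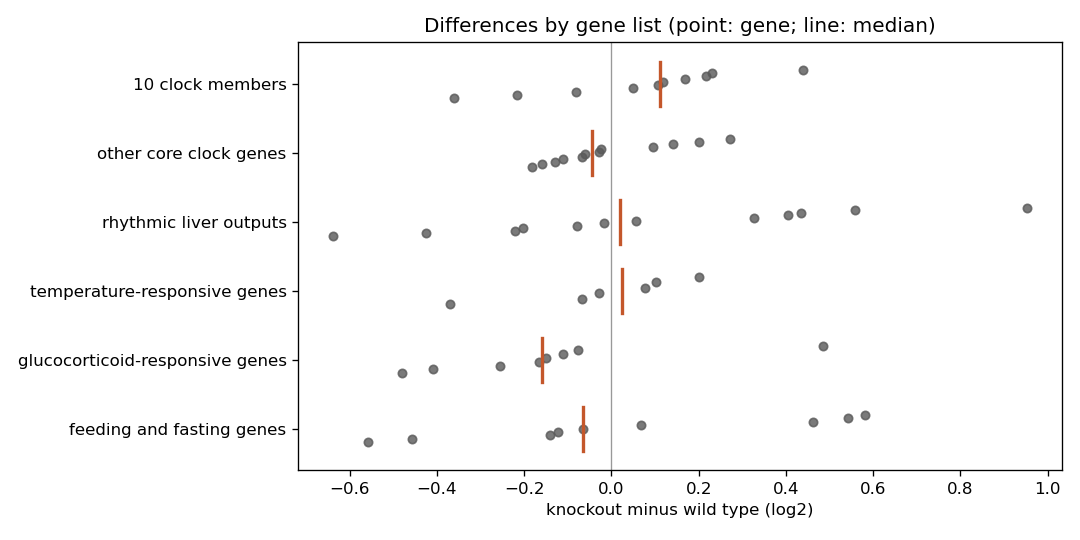
Knockout minus wild type in log2 units (x axis) for each measured gene of the clock members and of 5 other lists, with the list median as an orange line. The medians lie between -0.16 and 0.11, and the rhythmic liver outputs have the widest range, from -0.64 to 0.95.

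Marker lists of the cells in liver tissue were set beside these results, since in tissue RNA fewer cells of a type and less RNA per cell cannot be told apart. Hepatocyte markers were read for 8 of 8, and their median log2 ratio ran from -0.14 to 0.16 in the wild types and from -0.01 to 0.23 in the knockouts (-0.23 to 0.01 turned). The medians of 7 of 8 lymphocyte and natural killer markers ran from -0.02 to 0.04 in the wild types and from 0.06 to 0.32 in the knockouts, and those of 8 of 8 endothelial markers from -0.08 to 0.03 and from 0.08 to 0.12, so these medians did not overlap between genotypes. With the sign turned the knockout medians ran from -0.32 to -0.06 for lymphocyte markers, still with no overlap, and from -0.12 to -0.08 for endothelial markers, which overlapped. Single markers are named after their values were seen. As read, genotypes did not overlap in 1 of 7 lymphocyte markers (Cd79a) and 2 of 8 endothelial markers (Kdr and Ehd3). The same held for 1 of 5 cholangiocyte markers (Krt7), where 7.21% of all features did not overlap. In the knockout 3 endothelial markers were lower, among them Lyve1, a gene of sinusoidal endothelium, at -1.01 ± 0.36 (adjusted p = 0.490 by limma). Stellate cell markers (7 of 7) had their lowest median, -0.40, in wild-type mouse 22. Their medians ran from -0.17 to 0.21 in the other wild types and from -0.23 to -0.04 in the knockouts (0.04 to 0.23 turned). The Kupffer cell (8 of 8), neutrophil (5 of 6), cholangiocyte (5 of 5) and erythroid (3 of 4) medians overlapped between genotypes as read and turned. Whether a marker is at 0 cannot be read from ratios, and the part of these markers in the results was not tested.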

How the data were processed

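Total RNA from 3 Me1 knockout and 5 wild-type livers was amplified with aminoallyl labelling and hybridised in Cy3 and Cy5 against a pool of 5 wild-type livers, per the labels. The authors deposited ratios, read here as log10, with 1 column per mouse. Dyes were swapped, per the design text. For background correction, normalization and the merging of swapped arrays, the method is not given in the sources used here. Array medians lay between -0.0052 and 0.0075. The base and direction were inferred, as described above.

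Values were put on the log2 scale and probes of a symbol averaged. Platform symbols (23283 probes with 1, 16273 with none) were updated through a RefSeq table of GRCm38.p6, giving 36169 features. Genotypes were compared in limma 3.58.1 (R 4.3.3; lmFit, eBayes) with Benjamini-Hochberg adjustment over all features, tested on simulated data first. Correlations used two-sided exact permutation tests. No filter on low values was applied. Mice are the replicates.

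The members, lists and pairs were chosen with earlier results of these data known. All 10 members were named, with the 3 genes of smallest p in each other list and the 4 most and 2 least correlated genes with Arntl and Dbp. Alternatives were leaving out mice, array centring, scaling, quantile normalization, array weights, a variability filter, single probes, the pool as control, the turned sign and trended robust eBayes.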

Additional observations from a re-analysis of the deposited data

Results flagged for a closer look

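Among 36 genes named in the text, 2 had a wild-type mouse far from the other wild types, judged by its gap to the nearest of them over the range of all 5. Chance gives such a gap in about 1 of 20 groups. Timeless stood at 0.079 in wild-type mouse 14, where the next wild type was at -0.032. The gene 0610039K10Rik stood at 0.057 in wild-type mouse 15, where the next was at -0.019. None of the 10 clock members had such a value.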

How the results depend on the processing

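No clock member passed an adjusted p of 0.05 under any alternative run, with a lowest adjusted p of 0.0893 for Wee1 under array weights. The features passing, 10 as reported, numbered 6 with quantile normalization, 207 with array weights, 22 without the least variable features, 16 with single probes, 76 for the knockout arrays against the pool, 19 without the arrays of widest spread, 0 with trended robust eBayes (2844 at an unadjusted p of 0.05) and 6 to 65 with 1 mouse left out (65 without wild-type mouse 22). Members with no overlap, 1 as reported, numbered 0 with scaled or quantile-normalized arrays and 2 with the sign turned (Clock higher, Wee1 lower). They numbered 3 without the arrays of widest spread and 1 to 3 with 1 mouse left out (3 without wild-type mouse 22 or knockout 27). The share of all features with no overlap, 7.21% as reported, was not counted under these settings. Groups of fewer mice separate more easily, so these counts are not read as results about the members.

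With every knockout value turned in sign, Arntl stood at 0.27, Clock at 0.36, Npas2 at -0.11, Per1 at 0.063, Per2 at -0.37, Per3 at -0.11, Nr1d1 at -0.11, Dbp at -0.26 and Wee1 at -0.21. Of the other named genes, Timeless stood at 0.22, Fbxl21 at -0.32, Csnk1d at 0.023, Lpin1 at -0.97, Avpr1a at -0.58, Gys2 at -0.32, Cirbp at 0.40, Hspa8 at -0.28, Rbm3 at -0.10, Cdkn1a at 0.46, Sgk1 at 0.18, Fkbp5 at -0.25, Pck1 at 0.38, Irs2 at -0.50 and Ppargc1a at 0.20. Other reversals were Per1 at 0.019 without the arrays of widest spread, Cry1 at -0.034 without wild-type mouse 21 and -0.095 without knockout 27 (up to 0.13 with 1 mouse left out), Rbm3 at -0.0032 with array weights, and single probes of Csnk1d (0.029), Ppargc1a (0.038) and Sgk1 (0.067). The cause of these changes was not tested.

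The correlation of Arntl and Dbp was -0.78 without the 2 farthest mice and -0.82 as deviations from genotype means, neither past the threshold, and -0.93 to -0.86 with 1 mouse left out. The correlation of Arntl and Npas2 was 0.038 as deviations. With 1 mouse left out, Arntl and Npas2 ran from -0.54 to -0.15, Arntl and Nr1d1 from -0.64 to -0.16, and Dbp and Per3 from 0.12 to 0.70. Npas2 was not among the more variable features and has no value under that filter. No paired analysis was run, because the labels used here do not say which mice share a litter.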
